A study of Homo sapiens with 4 samples.

Results

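The dense distal enhancer clusters of SK-N-BE(2)C cells were defined from H3K27ac peaks alone. Peaks of the sgCtrl and sgSNHG1 lists on chromosomes 1 to 22 were pooled if they lay over 2500 bp from every protein-coding start site of GENCODE, and the amplified segment of chromosome 2 from 15900000 to 16450000 was left out. Overlapping peaks were merged, merged peaks within 12500 bp were stitched, and a stitched region was kept as a cluster if merged peaks covered at least 5000 of its bases. This rule kept 514 of 23354 stitched distal regions (2.20%), and these clusters held 21.0% of the distal bases covered in sgCtrl and 21.5% of those covered in sgSNHG1. The measured coverage of both lists chose the clusters, so every difference in coverage below is a description.

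H3K27ac is the acetylation of lysine 27 on histone H3, a mark that acetyltransferases such as p300 deposit at active promoters and enhancers and that histone deacetylases remove. Enhancers that lie close together are often bound by the same lineage transcription factors, and such dense clusters, called super-enhancers when ranked by signal, tend to lie near genes of cell identity. In neuroblastoma (NB), a tumor of the sympathoadrenal lineage, they are known near the transcription factors of the core regulatory circuitry (CRC) that maintain the adrenergic (ADRN) state, while other enhancers are used in the mesenchymal (MES) state.

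SK-N-BE(2)C is an NB cell line with amplified *MYCN*. The 2 sgCtrl samples were of genotype wildtype with a non-targeting control gRNA, and the 2 sgSNHG1 samples, labelled *SNHG1* knockout, were made with a pair of guide RNAs around this long non-coding RNA gene. By the study's description its expression was repressed but not abolished, so they are called *SNHG1*-depletion cells here. Cells of both groups had received Cas9 and a surrogate reporter plasmid, were selected with puromycin and were grown from single sorted cells. The control was 1 clone by the study's description, the sgSNHG1 clone taken for ChIP-seq was not named, and clone and genotype therefore cannot be told apart. The authors combined the reads of both samples of a group before they called peaks, so there is 1 list per group without a spread between replicates, and the groups were compared without a test. In pooled cells, fewer cells with acetylated histones and less acetylation per cell cannot be told apart either. The labelled cell type was checked on 6 CRC genes, of which 2 (*HAND2* and *TBX2*) lay within 100 kb of a cluster. *MYCN*, another of the 6, lies in the segment left out.

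The sequences of 6 cluster peaks are shown as examples of their base composition. Each is the 200 bases around the summit, on the plus strand of GRCh38, of the peak of highest fold enrichment outside exons and repeated stretches, with every CG dinucleotide in capitals. For *VIPR2* and *IRF2BPL* the peak was taken among those without an overlapping peak in the other list. They come from the largest cluster (*MAD1L1*), the cluster with the lowest ratio of covered bases (*VIPR2*), the cluster with the highest ratio (*IRF2BPL*) and clusters at a CRC factor (*HAND2*), a secretory granule gene (*CHGA*) and a nuclear receptor gene (*RARA*).
*MAD1L1* cluster, chr7:1987699-1987898, shared peak: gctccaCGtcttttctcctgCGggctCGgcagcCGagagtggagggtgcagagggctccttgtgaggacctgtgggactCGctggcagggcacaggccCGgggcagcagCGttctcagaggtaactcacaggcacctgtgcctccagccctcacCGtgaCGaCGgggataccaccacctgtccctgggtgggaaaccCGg
*VIPR2* cluster, chr7:159049396-159049595, sgCtrl peak with no sgSNHG1 peak: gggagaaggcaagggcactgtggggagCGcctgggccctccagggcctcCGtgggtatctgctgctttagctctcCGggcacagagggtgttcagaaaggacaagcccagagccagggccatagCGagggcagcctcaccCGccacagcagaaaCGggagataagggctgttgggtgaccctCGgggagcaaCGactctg
*IRF2BPL* cluster, chr14:76956192-76956391, sgSNHG1 peak with no sgCtrl peak: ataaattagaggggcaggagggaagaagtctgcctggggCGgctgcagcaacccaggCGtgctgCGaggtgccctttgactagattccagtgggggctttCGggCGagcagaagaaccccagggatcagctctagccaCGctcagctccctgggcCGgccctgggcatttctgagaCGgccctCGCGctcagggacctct
*HAND2* cluster, chr4:173538116-173538315, shared peak: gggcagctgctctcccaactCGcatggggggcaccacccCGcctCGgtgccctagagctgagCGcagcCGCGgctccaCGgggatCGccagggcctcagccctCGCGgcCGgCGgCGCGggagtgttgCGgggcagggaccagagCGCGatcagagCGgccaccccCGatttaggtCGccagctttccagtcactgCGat
*CHGA* cluster, chr14:92973879-92974078, shared peak: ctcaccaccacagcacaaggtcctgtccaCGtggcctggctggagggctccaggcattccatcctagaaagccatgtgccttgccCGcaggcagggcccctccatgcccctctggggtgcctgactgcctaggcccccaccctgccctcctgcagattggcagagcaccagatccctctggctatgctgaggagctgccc
*RARA* cluster, chr17:40312325-40312524, shared peak: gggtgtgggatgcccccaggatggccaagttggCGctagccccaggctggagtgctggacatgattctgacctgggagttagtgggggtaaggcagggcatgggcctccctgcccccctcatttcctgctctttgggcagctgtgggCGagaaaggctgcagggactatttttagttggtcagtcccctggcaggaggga

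These sequences were rich in G and C, from 61.5% in the *RARA* peak to 72.0% in the *HAND2* peak. They held between 2 CG dinucleotides, in the *CHGA* and *RARA* peaks, and 21, in the *HAND2* peak. The *CHGA* sequence held 1 copy of the E-box CACGTG, a motif of MYC family factors, and the *VIPR2* sequence 1 copy of the GATA motif AGATAA. The *HAND2* peak had a fold enrichment, which is its summit over the local background, of 6.82 in sgCtrl and 5.72 in sgSNHG1, and 166 and 99 fragments lay over its summit, as recovered from the fold enrichment and p-value of the peak. At the *CHGA* peak the order of the fold enrichments was the other way, 4.21 in sgCtrl and 4.86 in sgSNHG1, with 150 and 135 fragments.

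The clusters were long and sparse. Their median span was 54008 bp and the longest was 365566 bp, their median merged coverage was 7256 bases, from 5008 to 63315, and a median of 14 merged peaks (3 to 111) covered a median of 14.5% of the span. Within 1 gene body lay 180 clusters (35.0%), 82 (16.0%) overlapped no protein-coding gene, and 189 (36.8%) had a protein-coding start site between their distal peaks. At least 1 peak on the start site of a gene that is not protein-coding was held by 131 clusters (25.5%), against 6.11% of all stitched regions. By peak, such start sites were at 2.21% of sgCtrl cluster peaks and 3.27% of other distal sgCtrl peaks. Clusters lay near chromosome ends more often than stitched regions in general. Within 5 Mb of an end lay 243 of 514 clusters (47.3%), against 32.4% of the 1095 stitched regions with 2500 to under 5000 covered bases and 12.3% of all stitched regions. Chromosomes 1, 11 and 17 had 49 clusters each, and chromosome 17 had the most per length, with 0.589 per Mb. Of the 10-Mb windows, the last of chromosome 8 held the most, 22 clusters, followed by the window of chromosome 9 from 130000001 to 140000000 with 18.

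Coverage of the clusters was lower in the sgSNHG1 list. Peaks covered 4228943 bases of the clusters in sgCtrl and 2833921 in sgSNHG1, a ratio of 0.670, with 7818 and 5911 peaks. The ratio was 0.644 in regions of 2500 to under 5000 bases and 0.653 over all stitched distal regions, so that the clusters' ratio was close to that of distal peaks in general. Of the merged bases of the clusters, 48.2% were covered in both lists, 40.5% in sgCtrl only and 11.3% in sgSNHG1 only. Over all stitched regions, 41.0% were covered in both.

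Almost every cluster had fewer covered bases in sgSNHG1, 491 of 514 (95.5%), and 23 had more. Fewer were also found in 90.0% of regions of 2500 to under 5000 bases and in 73.3% of all stitched regions. A change of at least 1.5-fold was counted after 250 bases were added to both values. By this measure 255 clusters (49.6%, 95% Wilson interval 45.3% to 53.9%) were lower in sgSNHG1 and 1 (0.195%) was higher. The sgCtrl list was the longer one, with 63699 peaks against 50119, and the share of lower clusters was 31.3% when it was reduced to equal length and 25.9% when clusters were chosen on sgSNHG1 alone. With the full lists, the shares of lower regions were close to the 49.6% of clusters among all stitched regions (46.2%) and among regions of 2500 to under 5000 bases (48.8%). The shares of higher regions were 13.0% and 0.548%. The median number of merged peaks was 1 over all regions and 14 in clusters, and every cluster had at least 1 shared peak. The median log2 ratio of the clusters was -0.58, with quartiles of -0.84 and -0.33. The intervals cover counting error over regions only.

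**Figure D1:**
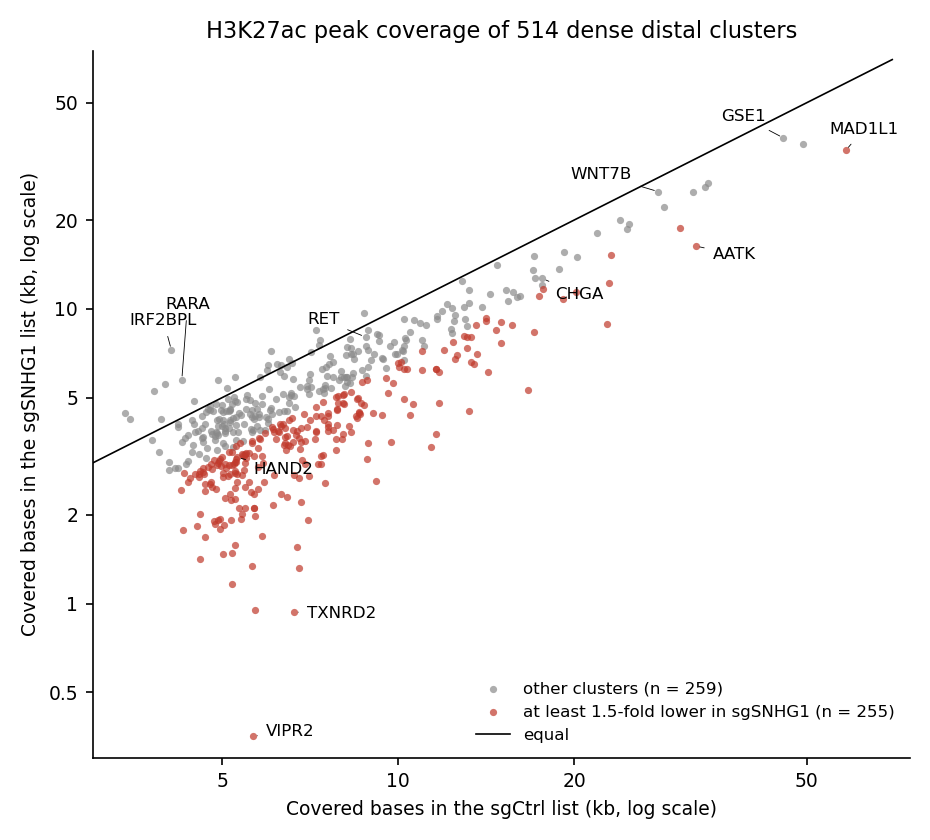
Bases covered by H3K27ac peaks in each of the 514 clusters (points), in kb on log axes, in the sgCtrl list (horizontal) and the sgSNHG1 list (vertical), with a line where both are equal. Red points are the 255 clusters at least 1.5-fold lower in sgSNHG1, 491 points lie below the line, and *IRF2BPL* and *RARA* are among the 23 above it.

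**Figure D2:**
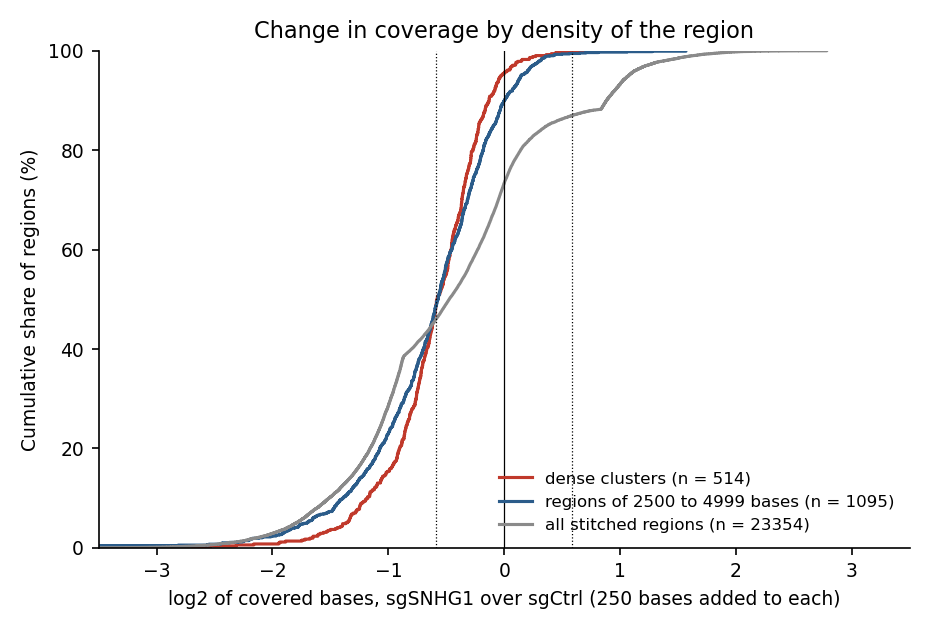
Cumulative share of regions (vertical, %) by log2 ratio of covered bases in sgSNHG1 over sgCtrl (horizontal) for the 514 clusters, the 1095 regions of 2500 to under 5000 bases and all 23354 stitched regions, with dotted lines at 1.5-fold. The 3 curves cross near the left dotted line, and the cluster curve is the steepest and reaches 95.5% of clusters below 0.

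The minimum of 5000 bases was reached within both lists by 192 clusters, in sgCtrl alone by 228 and in sgSNHG1 alone by 5, and 89 reached it only when the lists were pooled. Near the threshold, the last clusters kept were those at *XXYLT1* (5023 merged bases), *KAZN* (5021) and *NTPCR* (5008), and the first left out were those at *KLF13* (4996), *GSE1* (4993) and *WNK2* (4991). The order of the clusters by covered bases was partly the same in both lists. The Spearman correlation over the 514 clusters was 0.728, and 37 clusters were among the first 50 of both lists. The points share the merged regions on which they were chosen.

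All 12 of the largest clusters had fewer covered bases in sgSNHG1, and 3 of them were lower by at least 1.5-fold. The cluster at *MAD1L1*, which encodes a spindle checkpoint protein, was the largest, with 58276 covered bases in sgCtrl and 34421 in sgSNHG1. The next, within *GSE1*, which encodes a protein of histone deacetylase complexes, had 45602 and 37966. The *TSNARE1* cluster had 49247 and 36283. A cluster within *HDAC4*, a class IIa histone deacetylase gene, had 33461 and 25836. Among these 4, only the *MAD1L1* cluster was lower by 1.5-fold.

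Of the other 8 large clusters, those at *VAV2*, a guanine nucleotide exchange factor gene, and at *AATK* and *BAIAP2* were lower by at least 1.5-fold. The *VAV2* cluster went from 30383 to 18757 bases and the *AATK* cluster from 32286 to 16315. The cluster within *RPTOR*, the scaffold of mTORC1, had 31965 bases in sgCtrl and 24897 in sgSNHG1. The *LRP5* cluster, over a Wnt co-receptor, had 28435 and 22094, and the cluster near *WNT7B*, a Wnt ligand, had 27856 and 24959. The ratio was thus 0.777 at *LRP5* and 0.896 at *WNT7B*, the nearest to equal among the 12. The clusters at *KIF26A* (33911 and 26636), at *ZMIZ1* near *PPIF* (23922 and 19932) and at *EEFSEC* near *DNAJB8* (24821 and 19384) lay between. Of the clusters with at least 10 kb under merged peaks, 127 of 128 had fewer covered bases in sgSNHG1, and their ratio was 0.685. In clusters under 7 kb, 223 of 233 had fewer, and the ratio was 0.653.

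**Figure D3:**
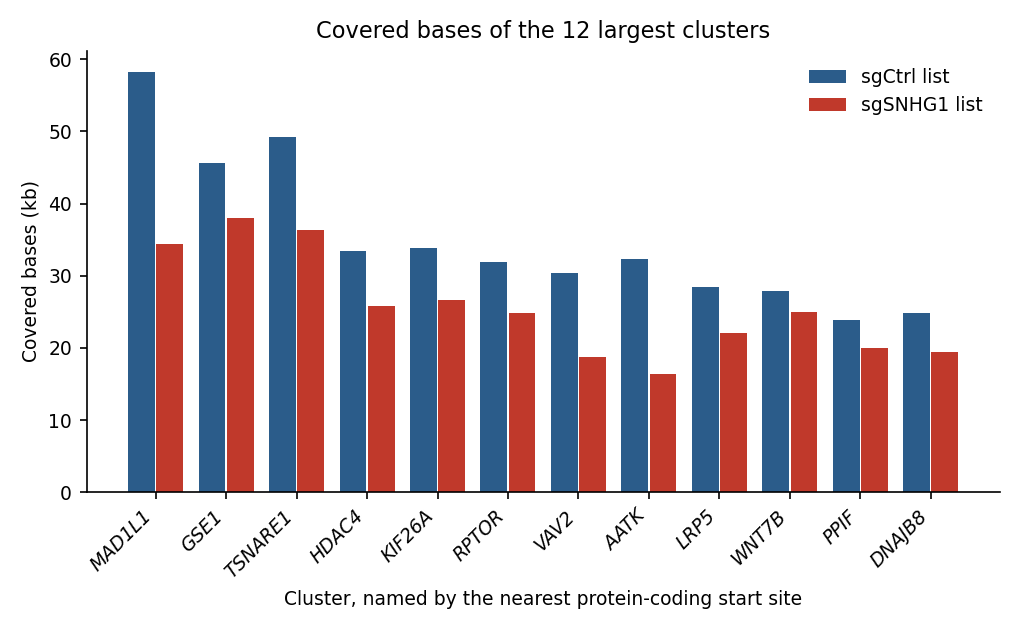
Covered bases (kb) in the sgCtrl list (blue) and the sgSNHG1 list (red) of the 12 clusters with the most merged bases, in that order, with 1 pooled list per group and therefore no error bars. The red bar is the shorter in every pair, most of all at *AATK* (ratio 0.505) and least at *WNT7B* (0.896).

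In the 6 clusters of lowest ratio, most covered bases were in the sgCtrl list only. The lowest was a cluster that overlapped *VIPR2*, the gene of a receptor for vasoactive intestinal peptide, and reached beyond it. It had 10 peaks over 5645 bases in sgCtrl and 1 peak over 355 bases in sgSNHG1. Its printed peak had a fold enrichment of 4.92 with 28 fragments in sgCtrl and no peak in sgSNHG1. A second cluster, within *VIPR2* and not among these 6, had 14 peaks over 7574 bases in sgCtrl and 12 over 4333 in sgSNHG1. The cluster at *TXNRD2*, a mitochondrial thioredoxin reductase gene, went from 6634 to 937 bases, and the one at *CFAP99* and *ZFYVE28* from 5697 to 948. The clusters in *NDUFA10*, a subunit of respiratory complex I (6761 and 1317), in *MAPT*, the gene of the axonal protein tau (6697 and 1552), and in *MROH1* (5184 and 1170) followed. The 6 clusters of lowest ratio had 5471 to 7549 merged bases.

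The highest ratio was 1.77, in the cluster nearest *IRF2BPL*, whose start site lay 70873 bp away. This cluster had 9 peaks over 4092 bases in sgCtrl and 14 peaks over 7234 bases in sgSNHG1. It was the single cluster that was 1.5-fold higher. The peaks of sgCtrl were kept there, with 3910 bases in both lists and 182 in sgCtrl only. The cluster at *PDE2A*, a cyclic nucleotide phosphodiesterase gene, had 3994 and 5568 bases. The cluster nearest *TMEM33* had 3813 and 5275, and the cluster at *RARA*, the retinoic acid receptor alpha, had 4262 and 5730. These 4, with the one nearest *NPIPB3* (4920 and 5754), were the 5 that reached the minimum in sgSNHG1 alone. The cluster nearest *CPN2* (3404 and 4447), 73605 bp away, and the one at *BCAR3* (3475 and 4244) completed the 6 highest. Among all 23 clusters with more covered bases in sgSNHG1, some differed little, as at *ENDOV* (5805 and 5880).

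**Figure D4:**
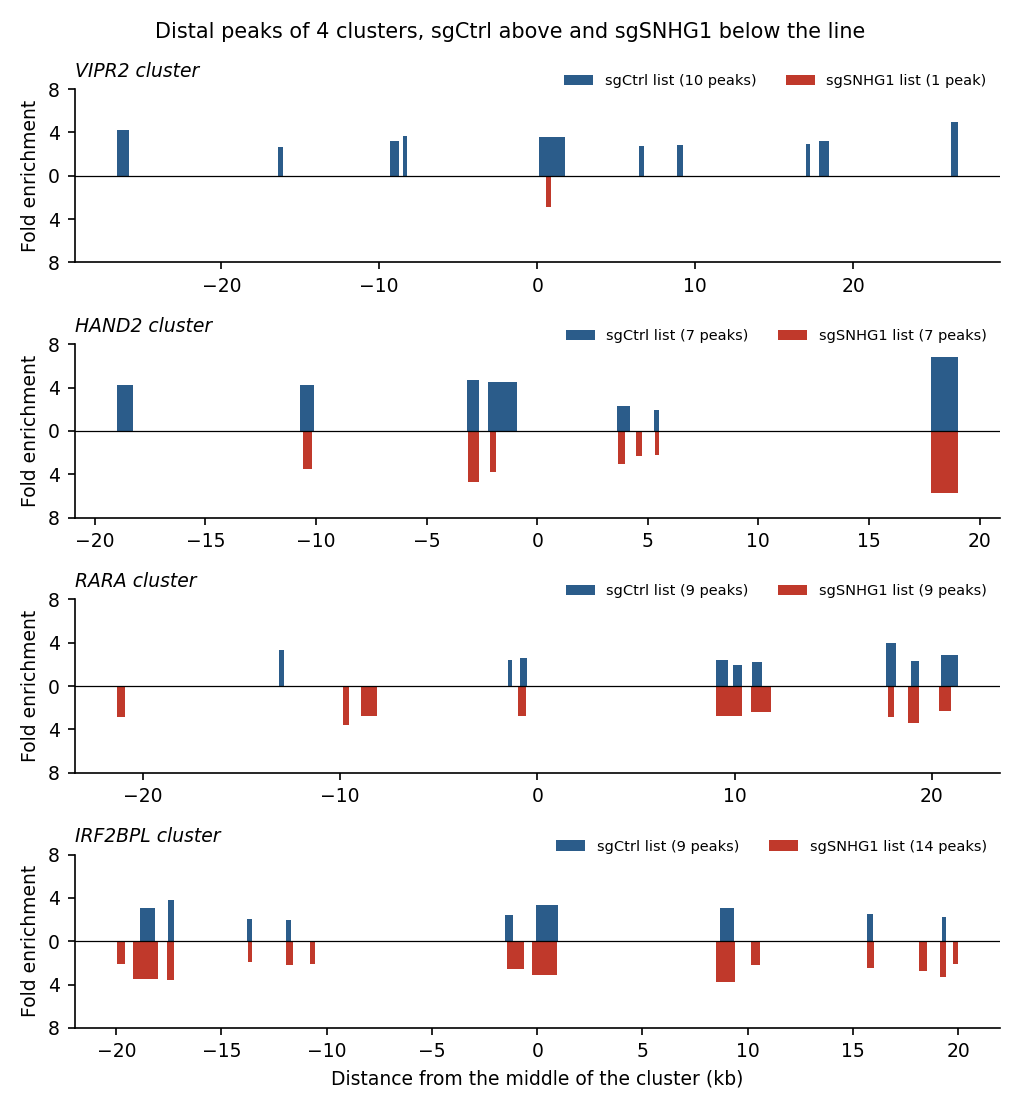
Distal H3K27ac peaks of 4 clusters, drawn to scale by distance from the middle of the cluster (kb), with the fold enrichment of sgCtrl peaks above the line and of sgSNHG1 peaks below it. The *VIPR2* cluster has 10 sgCtrl peaks and 1 sgSNHG1 peak, the *HAND2* cluster 7 and 7, the *RARA* cluster 9 and 9 and the *IRF2BPL* cluster 9 and 14.

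Some genes had several clusters. *PTPRN2*, which encodes a protein of dense-core vesicles, held 6 clusters within its body, with 51309 covered bases in sgCtrl and 30127 in sgSNHG1. *GSE1* held 3 (57735 and 46875). *RXRA*, the partner of the retinoic acid receptors, had 3 within 100 kb (17927 and 14663). In total 53 genes were nearest to at least 2 clusters. A further 3 clusters, nearest *TMEM121*, lay over immunoglobulin genes at the end of chromosome 14 (51740 and 38915). Sequence there recurs in the genome, and 36-base stretches with other copies made up to 53.6% of the peaks of 1 *TMEM121* cluster. Over all clusters such stretches made up 5.81%, against 15.7% over all stitched regions. The 13 clusters with over 50% of their stretches repeated had a ratio of 0.835, and the ratio without them was 0.666.

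Clusters near genes of NB biology were read from 9 gene lists. Of all 18765 autosomal protein-coding genes, 8.72% lay within 100 kb of a cluster. In the CRC list 2 of 6 genes did. *HAND2*, a basic helix-loop-helix factor of sympathetic neurons, had a cluster with 7 peaks in each list, over 5300 bases in sgCtrl and 3135 in sgSNHG1. At its 6 pairs of shared peaks the summit signal, which is the number of fragments over the summit divided by the background of the list, had a median log2 ratio of -0.81. The ratio of covered bases of this cluster was 0.592, and that of all 19 clusters of chromosome 4, on which it lies, was 0.582. Of these 19 clusters, 16 lay far from *HAND2*, between positions 1 and 10000000, with a ratio of 0.536. The remaining clusters of the chromosome, nearest *CWH43* and *TMEM33*, had higher ratios than the *HAND2* cluster, 0.816 and 1.38. The cluster at *TBX2*, a T-box factor gene, had 5451 bases in sgCtrl and 4066 in sgSNHG1.

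Of 25 ADRN factors, 2 lay near a cluster. *GATA2* lay 10713 bp from the large *EEFSEC* cluster, and *EBF3* had 7482 covered bases in sgCtrl and 5390 in sgSNHG1. Of 35 MES factors 1 did, the AP-1 gene *FOSL2* (7659 and 5399). None of these 3 was lower by 1.5-fold. Catecholamine and secretory granule genes had 3 of 16. *CHGA*, which encodes chromogranin A, had 17631 bases in sgCtrl and 12681 in sgSNHG1. The cluster that spans *TH*, the rate-limiting enzyme of catecholamine synthesis, and *IGF2* had 8182 and 5892, and a neighbour at *IGF2* had 4888 and 4193. *CYB561*, the cytochrome of secretory vesicles, lay near a cluster with 6261 and 3834 bases, the only one of these 4 that was 1.5-fold lower.

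Of 24 receptor and growth genes of NB, 7 lay within 100 kb of a cluster. With 1 cluster that lay 101876 bp from *CCND1*, its nearest gene, they had 9 clusters, of which 4 were lower by 1.5-fold, near the 49.6% of all clusters. At *TERT*, the telomerase gene, covered bases were 4869 in sgCtrl and 2453 in sgSNHG1, and this cluster was among the 4. The cluster nearest *RET*, the receptor of GDNF family ligands, was the nearest to equal, with 8789 and 8025 bases and a median log2 ratio of 0.058 at its 10 shared peaks. Those near *CCND1*, the cyclin D1 gene, were also among the 4, with 13589 and 8827 bases in the larger and 5612 and 3556 in the smaller. Those near *BIRC5* (13092 and 8731) and *ODC1*, of polyamine synthesis (10208 and 6725), had ratios of 0.667 and 0.659.

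The remaining lists gave 3 of 44 axon guidance and adhesion genes, 3 of 30 ion channel and receptor genes, 3 of 36 genes of the Wnt, Notch, TGF-beta and retinoic acid pathways and 4 of 19 chromatin regulators. *PLXNA1*, a semaphorin receptor gene, had 2 clusters, the larger with 20235 and 15035 bases. The netrin receptor genes *UNC5A* (10975 and 6189) and *UNC5B* (8063 and 5143) had lower coverage by at least 1.5-fold. The cluster near *CHRNA3* and *CHRNB4*, subunits of the ganglionic nicotinic receptor, had 7543 and 5911. *WNT11* (5913 and 3895) and *CRABP2*, a carrier of retinoic acid (5256 and 3028), were lower in sgSNHG1, unlike *RARA*. Of the chromatin regulators, a second cluster at *HDAC4* had 4950 and 1941 bases, and clusters at *HDAC5* (4575 and 2812) and near *SMARCA4*, the ATPase of BAF complexes (6377 and 3460), were also lower. Of the 7 clusters of this list, 4 were lower by at least 1.5-fold, against 49.6% of all clusters.

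By chromosome, the ratio of covered bases was lowest on chromosome 18 (0.399, 2 clusters) and on chromosome 4 (0.582, 19 clusters) and highest on chromosome 11 (0.739, 49 clusters). Without chromosomes 4 and 9 the ratio was 0.674 over the clusters left. In the first 10 Mb of chromosome 4, 12 of 16 clusters were lower by 1.5-fold, against 49.6% of all clusters, and the ratio was 0.536. These included the cluster at *FGFR3*, a fibroblast growth factor receptor gene, with 7013 bases in sgCtrl and 1915 in sgSNHG1. In the last window of chromosome 14, which includes 2 clusters at *DLK1* with ratios of 0.935 and 0.943, 6 of 16 were lower, against the same 49.6%. Within 5 Mb of a chromosome end, the ratio was 0.644, and in the clusters farther away 0.699.

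At the level of single peaks, cluster peaks stood on a high local background. In sgCtrl, the fold enrichment had a median of 2.70 in clusters and 3.80 at other distal peaks. The number of fragments over the summit had the other order, with medians of 89 and 43. The local background that the peak caller used was 32.1 fragments in clusters and 9.89 elsewhere. The same held in sgSNHG1, with 2.77 and 3.82 for the fold enrichment and 26.0 and 8.95 for the local background. No input library is described, and a background taken from the ChIP library itself would include fragments of neighbouring peaks.

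Peaks in clusters were shared between the lists more often than other distal peaks. In sgCtrl, 61.4% of cluster peaks (interval 60.3% to 62.4%) overlapped a peak of sgSNHG1, against 50.5% of the others. In sgSNHG1, 84.9% overlapped one of sgCtrl, against 73.2%. Peaks in regions of 2500 to under 5000 bases, which are among the others, lay between, with 56.7% and 82.1%. The sgCtrl peaks without a partner were the weaker ones, with a median −log10 p of 11.9 against 18.7 for shared peaks. Cluster peaks of sgCtrl were also stronger and longer than other distal peaks, with a median −log10 p of 15.1 against 13.0 and a median length of 411 against 357 bases. The part of peak strength and length in the sharing was not tested. In 20 clusters every sgCtrl peak was shared, and in 124 every sgSNHG1 peak was.

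The summit signal of shared peaks was lower in sgSNHG1. Over 4797 shared sgCtrl peaks in clusters the median log2 ratio was -0.33, with quartiles of -0.52 and -0.11, and 83.5% of the peaks were lower. At other distal peaks the median was -0.22 and 71.4% were lower, and in regions of 2500 to under 5000 bases 78.3% were. In clusters, the fold enrichment hardly differed, with a median log2 ratio of -0.023, while the local background differed by -0.30. Regions of 2500 to under 5000 bases had a like pattern, with -0.041 for the fold enrichment, -0.24 for the local background and -0.28 for the summit signal. Over all distal peaks outside clusters the medians were -0.094 for the fold enrichment and -0.078 for the local background. The median ratio was below 0 in 475 of 514 clusters, from -1.04 in the *VIPR2* cluster, which had 1 shared peak, to 0.54 in the *TMEM33* cluster. This scale depends on the background value of each list, 4.89 fragments in sgCtrl and 4.66 in sgSNHG1, and the depth of the samples is unknown.

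The change in summit signal moved with GC content, inside and outside clusters. In the bin of lowest GC content (under 57.3% of the 300 bases around the summit), the median log2 ratio was 0.028 in clusters and 0.020 elsewhere. It was -0.21 and -0.15 in the next bin, and in the highest bin it was -0.45 and -0.36. Cluster peaks had a median GC content of 64.3% and other distal sgCtrl peaks 62.0%. Whole clusters had the same order. In the third of clusters with the lowest GC content, 40.1% were lower by 1.5-fold and the ratio of covered bases was 0.731, and in the third with the highest it was 57.9% and 0.627. In regions of 2500 to under 5000 bases the ratios in the same 3 ranges of GC content were 0.698, 0.590 and 0.616, so that the middle range was the lowest there. The Spearman correlation of GC content with the log2 ratio of covered bases over the 514 clusters was -0.227. The part of GC content in these differences was not tested.

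**Figure D5:**
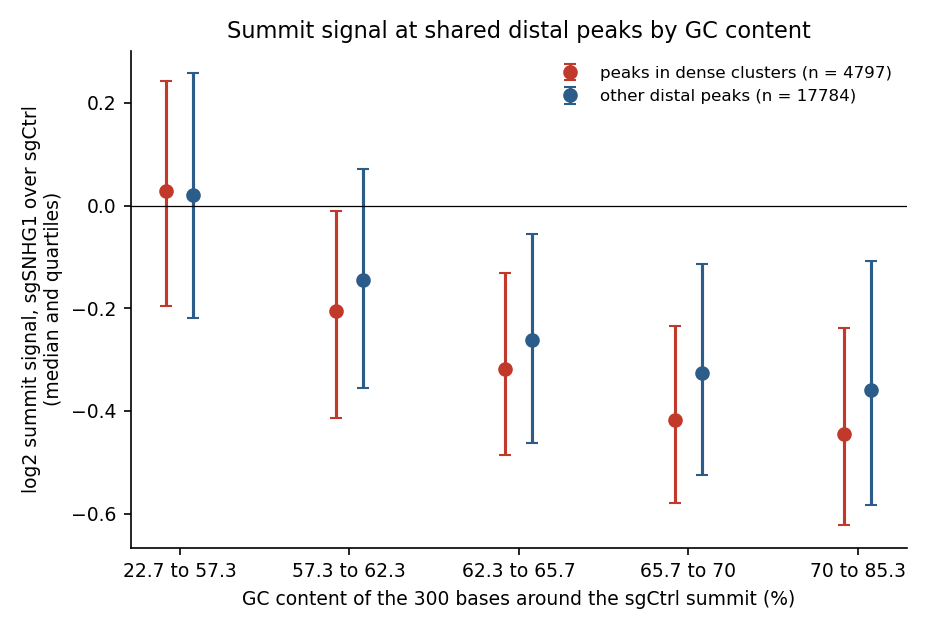
Median (points) and quartiles (bars) of the log2 ratio of summit signal, sgSNHG1 over sgCtrl (vertical), at shared distal peaks in 5 bins of GC content (horizontal, %), for 4797 peaks in clusters and 17784 other distal peaks. Medians go from 0.028 to -0.45 in clusters and from 0.020 to -0.36 elsewhere, and the quartile ranges of the 2 classes overlap in every bin.

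Motifs were counted in the 300 bases around sgCtrl summits on both strands. The E-box CACGTG was present at 8.54% of cluster peaks, 8.78% of peaks in regions of 2500 to under 5000 bases and 6.71% of all distal peaks. The E-box CAGATG, a motif of basic helix-loop-helix factors such as HAND2, was present at 20.9% of cluster peaks and 20.2% of all distal peaks. The GATA motif AGATAA was found at 1.71% and 2.65%, the AP-1 motif TGANTCA at 4.43% and 4.52%, the homeodomain motif TAATTA at 0.409% and 0.701% and the GC box GGGCGG at 28.0% and 28.8%. Windows with the composition of CpG islands were 8.74% of cluster peaks and 14.1% of other distal peaks, and 57.0% against 44.1% lay in introns.

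Promoter peaks, which the choice of clusters did not use, were compared for the genes nearest the clusters. The genes themselves follow from that choice, in which 228 clusters reached the minimum in sgCtrl alone and 5 in sgSNHG1 alone. The promoter values are therefore a description too. Each of the 514 clusters was named by 1 gene, 444 in all, and with every gene tied as nearest, as where several had a start site within the span, there were 529. Of these 529 genes, 93.2% had a peak within 2500 bp of a start site in sgCtrl, against 69.2% of the other 18236 genes. The median summit signal at the highest promoter peak was 32.1 for genes nearest a cluster and 17.6 for other genes in sgCtrl, and 30.3 and 19.1 in sgSNHG1. Where both lists had a promoter peak, the median log2 ratio was -0.059 for 477 genes nearest a cluster and 0.14 for 11716 other genes, and 55.3% and 35.3% were lower in sgSNHG1. The order was the same in each of 5 bins of GC content of the promoter peak, with medians of 0.071 and 0.34 in the lowest bin and -0.056 and 0.041 in the highest. Among the genes that name a cluster and had promoter peaks in both lists, the median was -0.086 for 213 at clusters lower by 1.5-fold and 0.0071 for 218 at the other clusters.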

How the data were processed

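The 4 ChIP-seq samples, 2 sgCtrl and 2 sgSNHG1, were grouped by their labels. The authors trimmed reads with cutadapt, mapped them with BWA on GRCh38, pooled the 2 replicates per group and ran MACS2 at a p-value of 1e-06 with duplicates kept. The deposited lists give the fold enrichment of each summit over the local background as a ratio, and the −log10 of its p-value. They give no values per replicate, so the depth per sample is unknown.

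The members and gene lists were chosen with earlier results of these data known. Start sites came from GENCODE release 44 (78462 protein-coding positions). Fragments over each summit were recovered from the fold enrichment and −log10 p, assuming a pseudocount of 1 and a Poisson distribution, and were whole within 0.01 for 99.9% of peaks in each list. Summit signal is this number over the local background at the 1st percentile of the list. Genes named were those of the 12 clusters with the most merged bases, the 6 lowest and 6 highest ratios, the 3 clusters on each side of the threshold, and clusters nearest to or within 100 kb of a listed gene. Other genes (*PTPRN2*, *RXRA*, *TMEM121*, *FGFR3*, *DLK1*, *NPIPB3*, *ENDOV* and *CWH43*) were chosen after their values were seen. Some genes under this rule are not reported here. Intervals are 95% Wilson intervals. Python 3.11.15 with pandas 2.3.3, scipy 1.17.1 and pysam 0.24.0 was used. The steps were tested on simulated data, where all of 5000 fragment numbers (100%) and all of 20 planted clusters were recovered. Stitched regions were the same as those of bedtools 2.31.1. Alternatives were stricter or equally long lists and other settings for clusters, start sites and overlaps.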

Additional observations from a re-analysis of the deposited data

How the results depend on the processing

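The ratio of covered bases stayed between 0.638 and 0.758 under the 12 alternatives tried, and the median log2 ratio of summit signal between -0.34 and -0.30 under 13. Neither of these changed direction, and the counts and shares have no direction to change. The ratio was 0.758 with the sgCtrl list reduced to the length of the sgSNHG1 list, where 31.3% of clusters were lower by 1.5-fold and 70.5% of sgCtrl and 79.7% of sgSNHG1 cluster peaks were shared. With a −log10 p of at least 10, 55.6% were lower and 58.1% of sgCtrl peaks were shared. Stitching within 5 kb left 125 clusters, with 35.2% lower, 0% higher and 69.7% and 88.4% of peaks shared. With the start sites of all genes left out there were 251 clusters, with 44.2% lower, 0% higher and 62.6% of sgCtrl peaks shared. A minimum of 7 kb left 281 clusters, with 62.6% shared. Clusters chosen on sgSNHG1 alone numbered 197, with 25.9% lower and 67.1% of sgCtrl peaks shared, and those chosen on sgCtrl alone had 0% higher. When 50% of both peaks had to overlap, 48.1% and 63.6% were shared. The share of lower clusters moved most when clusters were chosen on sgSNHG1 alone. The causes were not tested. Of 87 values, 64 stayed within the limits set (1.5-fold for counts, 1.1-fold for the ratio, 0.1 for log2 values and the interval for shares). Clusters without repeated sequence were an alternative chosen after seeing the data.

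No paired analysis was possible because both replicates of a group were combined before peaks were called, and for the same reason no replicate was left out. Without replicates the differences have no error, and depth and background of the immunoprecipitation cannot be told apart from the genotype.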
